A study of Mus musculus with 7 samples.

Results

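The neutrophil and monocyte cells of the neonatal mouse trigeminal ganglion were taken from a single-cell RNA library, and they numbered 180 of the 9427 cells that passed the cell filter. That share was 1.91%, with an exact binomial 95% interval of 1.64 to 2.21. A cell was a member when S100a8 plus S100a9, the 2 calprotectin genes, reached at least 50 UMIs per 10000. UMIs are unique molecular identifiers, the tags by which individual RNA molecules are counted. The 3 C1q genes, complement genes of tissue macrophages, had to stay under 20 per 10000, and the 4 adult globin genes under 2000. Macrophages, the cells with C1q at 20 or more, numbered 361 and served as the contrast. The remaining 8886 cells, among them neurons, glia and fibroblasts, are called all other cells.

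The library came from wild-type mice at postnatal day 3.5, and the labels do not say how many animals or ganglia were pooled. The trigeminal ganglion houses the neurons that carry touch, pain and temperature from the face, mouth and teeth. The series also has molar libraries from postnatal day 7.5, 3 from Fgfr2fl/fl controls and 3 from Gli1-CreER;Fgfr2fl/fl mutants, all after TMX (in the labels' spelling). These were not analysed here. With 1 library there are no replicates and no test, so every interval below covers counting error only. A level is given as CPM (counts per 1000000), the summed UMIs of a gene over the summed UMIs of all genes in a group of cells. Genes with 20 or more UMIs in the 2 groups together were tested. Those with a CPM ratio of 2 or more and an exact 95% interval above 1 are called higher, and those with a ratio of 0.5 or less and an interval below 1 are called lower.

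Neutrophils are short-lived phagocytes that mature from dividing precursors, chiefly in the bone marrow. Their granule proteins are made in sequence. The azurophil or primary granule, with myeloperoxidase and elastase-type proteases, is filled at the promyelocyte stage. The specific or secondary granule, with lactoferrin and cathelicidin, follows at the myelocyte stage. Gelatinase granules and the receptors that guide cells into tissue come last. Classical monocytes are a sister lineage marked in mice by Ly6c2 and Ccr2, and they can give rise to tissue macrophages.

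The members were split by this sequence into 4 ranges, which are cuts on levels and not cell types. The primary granule range held 49 cells with Mpo, Elane, Prtn3 and Ctsg summing to at least 20 UMIs per 10000. The specific granule range held 66 further cells with Camp, Ngp and Ltf summing to at least 50. The monocyte range held 8 further cells with Csf1r, Ccr2, F13a1, Fn1 and Ms4a6c summing to at least 10, and the remaining range held the other 57. As shares of the members these were 27.2% (20.9 to 34.3), 36.7% (29.6 to 44.2), 4.44% (1.94 to 8.57) and 31.7% (24.9 to 39.0). Of the primary range, 12 cells also met the specific granule limit. Few cells lay close to a limit: 4 had a primary sum of 10 to 30, 13 a specific sum of 25 to 75, and 2 a monocyte sum of 5 to 15. Genes that chose the members or cut the ranges are described below and are not findings.

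**Figure D1:**
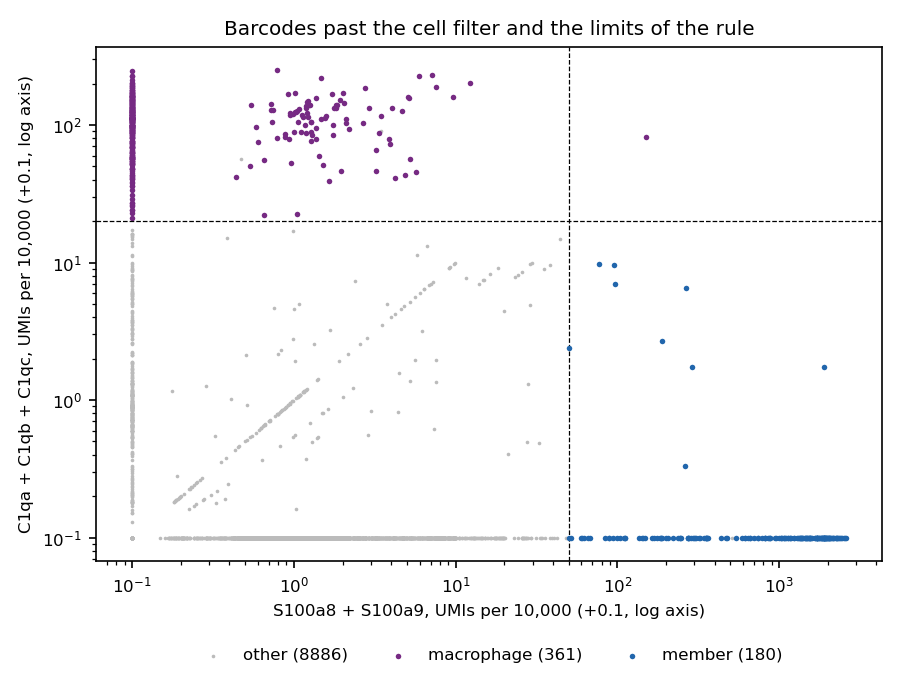
Each point is a cell that passed the filter, by its S100a8 plus S100a9 sum (x) and its C1q sum (y), both in UMIs per 10000 on log axes with an offset for zeros, and dashed lines mark the limits. The 180 members sit right of the S100 limit of 50 and below the C1q limit of 20, the 361 macrophages sit above the C1q limit, and 1 cell met both limits.

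Camp, Ngp, Lcn2 and Ltf are specific granule genes. Camp encodes the cathelicidin precursor, Ngp a cystatin-related granule protein, Lcn2 the iron-siderophore binder lipocalin 2, and Ltf the iron-binding protein lactoferrin. Their promoters are shown because these 4 had the most UMIs in the members among the listed specific granule genes. The promoters were searched for 2 motifs of factors known to act in granulopoiesis. The motifs were C/EBP (TTGCNNAA, or TTNNGCAA on the other strand) and PU.1 (GAGGAA, or TTCCTC on the other strand); no C/EBP match overlapped a PU.1 match in these sequences. Each line gives the 250 bases before the RefSeq start in GRCm38.p6, 5′ to 3′ on the strand of the gene, with matches in capitals. Camp lies at chr9:109849457-109849706 on the minus strand, Ngp at chr9:110419558-110419807 on the plus strand, Lcn2 at chr2:32387740-32387989 on the minus strand and Ltf at chr9:111019042-111019291 on the plus strand.
Camp: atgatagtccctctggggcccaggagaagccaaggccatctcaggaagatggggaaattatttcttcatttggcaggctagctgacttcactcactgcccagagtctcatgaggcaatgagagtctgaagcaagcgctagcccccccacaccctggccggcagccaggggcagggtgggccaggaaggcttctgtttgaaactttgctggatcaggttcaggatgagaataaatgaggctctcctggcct
Ngp: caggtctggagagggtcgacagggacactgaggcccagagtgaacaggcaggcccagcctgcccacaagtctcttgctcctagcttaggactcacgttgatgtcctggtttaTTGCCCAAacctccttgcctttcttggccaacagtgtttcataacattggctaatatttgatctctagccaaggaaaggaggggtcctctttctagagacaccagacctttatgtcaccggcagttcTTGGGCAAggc
Lcn2: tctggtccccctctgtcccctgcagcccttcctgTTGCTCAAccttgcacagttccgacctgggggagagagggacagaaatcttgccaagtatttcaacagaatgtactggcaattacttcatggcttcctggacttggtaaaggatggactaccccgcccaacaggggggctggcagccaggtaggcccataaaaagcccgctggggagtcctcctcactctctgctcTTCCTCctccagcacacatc
Ltf: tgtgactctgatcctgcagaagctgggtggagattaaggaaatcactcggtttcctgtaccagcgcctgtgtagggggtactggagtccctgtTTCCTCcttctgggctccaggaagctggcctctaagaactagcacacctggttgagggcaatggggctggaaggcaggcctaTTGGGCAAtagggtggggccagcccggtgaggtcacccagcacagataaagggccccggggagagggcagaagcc
The Ngp sequence held 2 C/EBP matches, starting 138 and 11 bases before the start site. Lcn2 and Ltf each held 1 C/EBP and 1 PU.1 match, and Camp held neither. Among 27025 promoters of the same length, 2582 (9.55%) held the C/EBP letters, 147 (0.544%) held them at least 2 times, and 6252 (23.1%) held the PU.1 letters. Of the 13 specific granule genes examined, 10 had a promoter in the RefSeq table. Of these 10, 4 held a C/EBP match and 5 a PU.1 match. A match describes letters in a window and shows no binding.

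The S100 genes, alarmins that make up much of the neutrophil cytosol, varied widely among the members they had chosen. S100a8 ran from 13.8 to 1297 UMIs per 10000 with a median of 489.8, and S100a9 from 1.81 to 1492 with a median of 587. Their sum had a median of 1100.3, and 97 members were at 1000 or more. By range the median sum was 295 in the primary, 1876 in the specific, 823 in the remaining and 231 in the monocyte range. Within the primary range it was 953 in the 24 cells with at least 3000 UMIs and 163 in the 25 shallower ones. The 5 members closest to the limit had 50.4, 50.5, 51.9, 59.3 and 60.1, and the 5 nearest cells below it 47.8, 44.2, 42.1, 40.3 and 38.1. There were 33 cells between 25 and 50 that met the other limits. A total of 185 cells reached the S100 limit, of which 1 was left out by C1q and 4 by globin.

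The label was checked against markers that the rule had not used. Camp and Ngp stood at 14089 and 10068 CPM in the members, against 4.33 and 1.73 in macrophages and 4.62 and 1.62 in all other cells. Of the genes that cut the monocyte range, Ccr2 stood at 20.9 CPM over all members and Csf1r at 30.5. Only 8 members reached that range. The whole monocyte list summed to 7233 CPM in members, 5714 in macrophages and 915 in all other cells. Most of the sum in members came from Lyz2, the lysozyme gene, which made 1832 CPM of the sum in macrophages. The sum therefore does not rank members and macrophages by the other monocyte genes. Against all other cells 12 of 19 monocyte genes were higher and 3 lower (7.86% and 25.4% over all genes). Against macrophages 4 of 18 were higher and 11 lower. Summed over the group, the specific granule list stood above the monocyte list, at 35398 CPM. This did not hold in every cell: 70 of the 180 members had no UMI of Camp, Ngp or Ltf, and the sum of these 3 genes had a median of 18.8 UMIs per 10000. Monocytes with little S100 would have missed the rule. There were 433 cells with a monocyte sum of at least 10, S100 under 50 and C1q under 20. What these cells were was not tested. In the 3182 cells rich in the fibroblast genes Dcn and Col3a1, Fn1 stood at 339 CPM. The monocyte sum there had a median of 0.456 UMIs per 10000, an upper quartile of 4.39 and a highest value of 55.6.

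Depth and the RNA of other cells differed between the ranges. The members held 1870022 UMIs in all, with a median of 5586 per cell (1011 to 95356). Medians were 2681 in the primary, 6906 in the specific, 3450 in the remaining and 10764 in the monocyte range, against 8635 in macrophages. Markers of neurons, Schwann cells and satellite glia, fibroblasts and endothelium together reached at least 50 UMIs per 10000 in 54 members, of which 29 were in the primary, 6 in the specific and 19 in the remaining range. Deep cells weigh more in summed levels. The 19 included cells with 24931, 19596 and 18350 UMIs, of 332720 in the remaining range, so a large part of its summed levels came from such cells. The 6 included cells with 43325 and 41206 UMIs, of 674516 in the specific range. Summed levels of the Schwann and satellite list were 1969, 1150.5, 5617 and 485 CPM in the primary, specific, remaining and monocyte ranges. The fibroblast list stood at 1356, 2316, 4514 and 242 CPM, and the neuron list at 1393, 595, 1009.9 and 182 CPM, in the same order. No gene of these 3 lists was at 0 in the members. Their part in the results below was not tested, and the counts of each list without these 54 cells are given beside the main ones where they differ.

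The primary granule range fell into deep and shallow cells, a split made after the values were seen. The 24 cells with at least 3000 UMIs had a median of 24703 UMIs, a primary sum of 234 per 10000, other-cell markers at 4.81 and globin at 7.99. Of these cells 20 had other-cell markers under 50, and the highest value was 166. The cells with 95356 and 94472 UMIs, of 780265 in the range, had other-cell markers at 135 and 137. The 25 cells under 3000 UMIs had a median of 1533 UMIs, a primary sum of 78.3, other-cell markers at 111 and globin at 569. All 25 shallow cells were among those with other-cell markers at 50 or more, and 22 of them had no UMI of Camp, Ngp or Ltf. Whether these 25 barcodes are intact single cells was not tested. They supplied few of the UMIs, so the summed levels of the range were near those of the deep cells: Elane stood at 7016 CPM in the range, 7179 in the deep cells and 3971 in the shallow cells.

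Markers of other blood cells had low summed levels, though some were called higher in the members. The T and NK lymphocyte list summed to 152 CPM in the members, of which Nkg7 made 140.1, and Cd3e, Klrb1c, Ncr1 and Il7r were at 0. The B cell list summed to 72.7 CPM, with Ms4a1, Vpreb3 and Pax5 at 0. The mast cell and basophil list stood at 12.8 CPM with Fcer1a at 0, the eosinophil list at 18.2 with Prg2, Epx and Ear1 at 0, and the dendritic cell list at 10.2 with Xcr1, Clec9a and Cd209a at 0. Erythroid genes other than the globins of the rule summed to 169.5 CPM, against 47.4 in macrophages. All 6 tested were higher than in macrophages (10.8% over all genes), or 1 of 4 without the cells with other-cell markers. Against all other cells all 7 tested were lower (25.4% over all genes). Of the eosinophil list, 1 of 2 was higher than in macrophages, and 2 of 3 were higher than in all other cells (7.86% over all genes), with none lower. Of the T and NK list, 2 of 3 were higher and 1 lower than in macrophages.

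**Figure D2:**
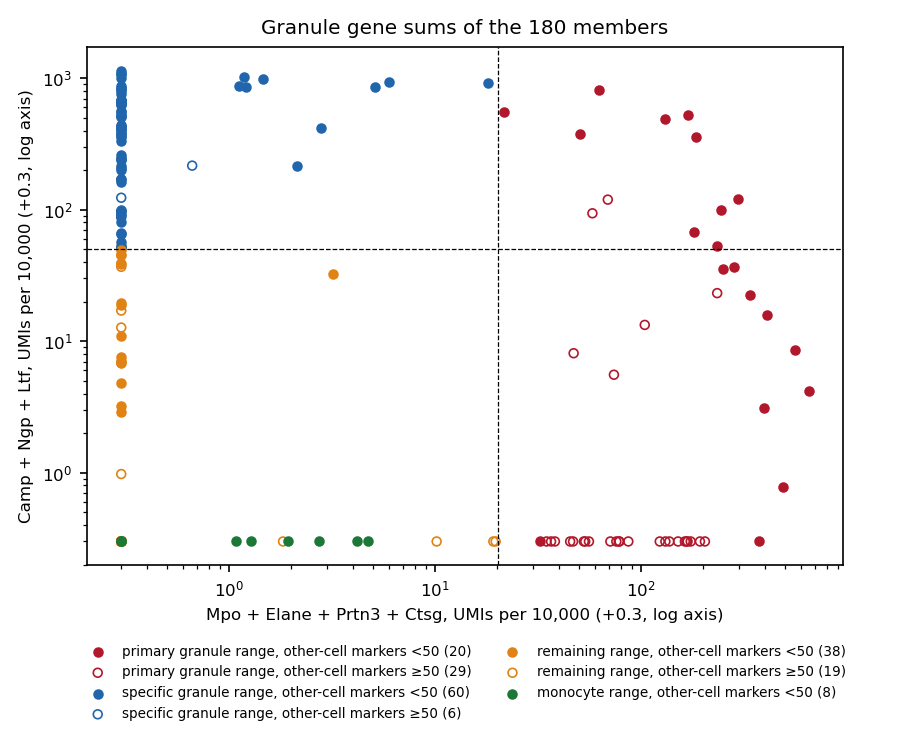
Each point is 1 of the 180 members, by its primary granule sum (x) and its specific granule sum (y) in UMIs per 10000 on log axes with an offset for zeros, coloured by range. Filled points have other-cell markers under 50 per 10000 and open points have 50 or more, and most open points of the primary range lie at a specific sum of 0.

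Primary granule genes separated 49 of the members from the rest. Elane, which encodes neutrophil elastase, ran from 2.60 to 294 UMIs per 10000 in the primary range with a median of 46.0, and had a UMI in all 49 cells. In the specific range it was found in 4 of 66 cells and in the remaining range in 4 of 57. After each cell was thinned to 2000 UMIs, the share of cells with an Elane UMI was 88.9% of 27 primary range cells, 3.12% of 64 specific range cells and 0.212% of 2833 fibroblast range cells. Fibroblasts should lack this gene, so their share gives a background from free RNA. That background may not hold for the shallow primary range cells. Globin had a median of 569 per 10000 in those and 20.2 in fibroblast range cells. The thinning left out 22 primary range, 2 specific range and 349 fibroblast range cells as too shallow. Elane was one of the genes that cut the range.

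Genes of the primary granule list that had not cut the range were examined in the primary against the specific range, a comparison added after the data were seen. Of 7345 genes tested, 21.1% were called higher in the primary range and 12.6% lower, 33.7% in all. Of the called genes 62.5% were higher, against 88.6% for UMIs per cell in place of CPM. Of the 6 listed primary granule genes left, 4 were higher, and all 6 were higher without the cells that had other-cell markers. The median log2 ratio of the list was 2.65, against 0.30 over all genes. Ms4a3, a membrane protein of granulocyte and monocyte progenitors, stood at 1199.6 CPM in the primary and 94.9 in the specific range, a ratio of 12.6 (9.81 to 16.6). Prss57, a serine protease of the azurophil granule, was 9.61 times higher (5.85 to 16.8), with 189 and 17 UMIs. Cst7, a cysteine protease inhibitor, had 42 UMIs against 1, a ratio of 36.3 (6.17 to 1468). The endoplasmic reticulum chaperone Calr was 4.28 times higher (3.01 to 6.23), and 9.47 times (5.43 to 17.8) without the cells with other-cell markers. Serpinb1a, which encodes an inhibitor of elastase-type proteases, was not called, with a ratio of 1.88 (1.64 to 2.16), and was called at 2.07 without those cells.

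Other early genes included some higher and some lower in the primary range. Of 6 tested genes of the progenitor surface list, 4 were higher in the primary range and none lower, or 3 of 5 without the cells with other-cell markers, where Sox4 fell under 20 UMIs. They included the stem cell factor receptor Kit at 2.74 (1.05 to 8.37, 19 against 6 UMIs) and Cdk6, a kinase that drives the early cell cycle, at 3.32 (1.98 to 5.83). Without those cells Kit stood at 4.38 and Cdk6 at 5.75. The tetraspanin Cd63, which is carried in azurophil granule membranes, was 2.46 times higher (2.09 to 2.90). Of 12 early transcription factors 2 were higher and 3 lower, or 1 and 4 of 10 without the cells with other-cell markers. Over all genes tested 21.1% were higher and 12.6% lower, or 1253 and 978 of 5227 without those cells. The count of higher factors was thus not above the share over all genes. Myb, a factor of blood progenitors, was 5.33 times higher (2.23 to 15.5). Gfi1, a repressor needed for neutrophil formation, had 18 UMIs against 2, a ratio of 7.78 (1.86 to 69.1), and fell under the 20 UMIs needed for a call once cells with other-cell markers were left out. The 3 lower factors were Klf2, Zeb2 and Lmo4, with ratios of 0.357, 0.311 and 0.490, and of 0.0761, 0.195 and 0.365 without those cells. Nkg7, a granule protein better known from lymphocytes, was 27.4 times higher (13.7 to 64.3) at 326 CPM. Sdf2l1, a chaperone of the endoplasmic reticulum, was 28.0 times higher (9.28 to 138), and 85.4 times without the cells with other-cell markers. Nkg7 was on the lymphocyte marker list, and Sdf2l1 was among the 10 largest ratios.

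Later genes were lower in the primary range. All 9 tested genes of the gelatinase granule list, 12 of 16 of the mature neutrophil list, 4 of 5 stefin A genes and 8 of 13 migration receptors were lower, and none of these was higher. Without the cells with other-cell markers the same counts were found. Retnlg, a resistin-like protein of neutrophils, stood at 82.0 CPM in the primary and 9135 in the specific range, 111-fold lower (87.1 to 145). The collagenase Mmp8 was 78.1-fold lower (35.6 to 214), and the gelatinase Mmp9 69.0-fold lower (36.1 to 152). Fpr1, a receptor for bacterial formyl peptides, had no UMI in the primary range against 124 in the specific range, and so was at least 47.8-fold lower when set against a floor of 3 counts over the range. Ly6g, the classical surface marker of mouse neutrophils, had 1 UMI against 121, a fold of 140.0 (24.7 to 5574).

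Specific granule genes were high in the members summed as a group, but unevenly over the ranges. The list stood at 70158 CPM in the specific, 21659 in the primary, 5476 in the remaining and 1818 in the monocyte range. It holds Camp, Ngp and Ltf, which cut the specific range, so the order of these sums over the ranges is not a finding. All 13 listed genes were higher in members than in macrophages, where 10.8% of 11906 tested genes were higher and 17.7% lower, and the median log2 ratio of the list was 8.20 against -0.18 over all genes. Of the called genes 38.0% were higher, against 20.7% without the cells with other-cell markers and 47.6% with the genes of the rule left out of the totals. Without the cells with other-cell markers 1016 of 11276 tested genes were higher and 3891 lower, which bears on every list count without those cells in this comparison. Camp was 3253 times higher (1972 to 5813), Ngp 5811 times (2669 to 15838), Lcn2 2995 times (1283 to 9225) and Ltf 942 times (403 to 2904). Chil3, a chitinase-like lectin, had 1493 UMIs in members and none in macrophages, at least 922-fold higher. Fcnb, a ficolin that recognises microbial sugars, was at least 564-fold higher on the same floor. Hp, which encodes haptoglobin, was 422 times higher (213 to 978), and Pglyrp1, a peptidoglycan-binding protein, 222 times (145 to 359).

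Among the ranges these genes did not move as a block. Camp per cell had a lowest, median and highest value of 17.6, 184 and 614 UMIs per 10000 in the specific range, 0, 0 and 489.9 in the primary range, and 0, 0 and 36.2 in the remaining range. The specific range does not overlap zero by its own definition, while 27 of the 49 primary range cells had no Camp UMI. After thinning, a Camp UMI was found in 100% of specific range cells, 66.7% of primary range cells, 21.6% of remaining range cells, 0% of 8 monocyte range and 323 macrophage cells, and 1.06% of fibroblast range cells. Unthinned, the shares were 100%, 44.9%, 26.3%, 0%, 4.16% and 4.49%. The 0 of 8 monocyte range cells allows a share of up to 36.9% by the exact interval.

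Lcn2, which had no part in the cuts, ran from 0 to 242 UMIs per 10000 in the specific range with a median of 104, from 0 to 113 in the remaining range with a median of 3.88, and from 0 to 66.5 in the primary range with a median of 3.37. The ranges overlapped, with the specific range highest. Its summed level was 9912 CPM in the specific, 1282 in the primary and 1073 in the remaining range. Fcnb had another order, with 825 CPM in the primary, 385 in the specific and 0 in the remaining range. Its ratio between primary and specific range was 2.14 (1.85 to 2.48), and it was the only gene of the list called higher there, while 6 of 10 were lower. Hp differed little, at 851, 1169.7 and 878 CPM in the primary, specific and remaining ranges.

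**Figure D3:**
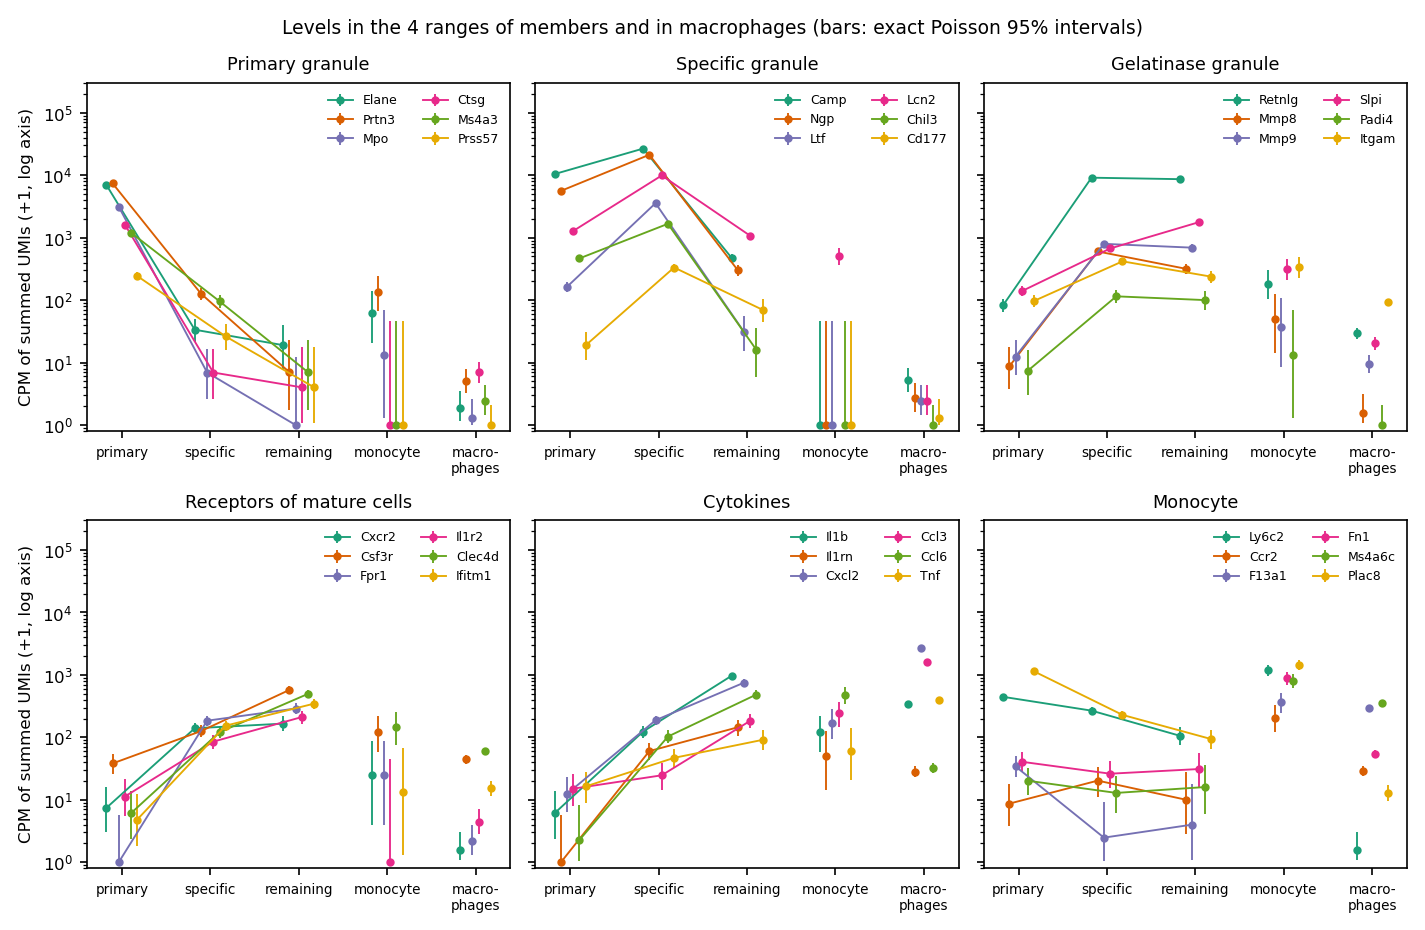
Summed levels in CPM plus 1 (y, log axes) of genes grouped by role across the primary, specific, remaining and monocyte ranges and macrophages (x), with exact Poisson 95% intervals that cover counting error only. Elane peaks in the primary range at 7016 CPM, Lcn2 in the specific range at 9912, Csf3r and Il1b in the remaining range at 574 and 968, and Ly6c2 in the monocyte range at 1199.7. Cells with other-cell markers are included.

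The specific range was then set against the remaining range, where the sum of Camp, Ngp and Ltf was low by definition. The whole specific granule list still summed to 5476 CPM in the remaining range, against 70158 in the specific range and 24.3 in macrophages. Of 6049 genes tested, 4.20% were higher in the specific range and 20.5% lower. Of the called genes 17.0% were higher, against 74.2% for UMIs per cell in place of CPM. Of 10 specific granule genes that had not cut the ranges, 7 were higher and none lower, or 6 without the cells with other-cell markers. Chil3 was 111 times higher (47.4 to 342, and 65.6 times without those cells), Lcn2 9.24 times (8.30 to 10.3) and Cd177, a surface protein of neutrophils, 4.80 times (3.12 to 7.74). Abca13, a transporter of the ABC family, was 11.6 times higher (4.85 to 36.5). Olfm4 and Wfdc21 had ratios of 1.59 and 1.74 and were not called. Serpinb1a was 24.9 times higher (11.3 to 68.4), and 43.1 times without those cells.

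Gelatinase granule genes did not follow the specific granule genes. None of 9 was higher in the specific range, and 1 was lower. Retnlg had medians of 132 and 37.5 UMIs per 10000 in the specific and remaining ranges, with a UMI in 62 of 66 and 48 of 57 cells, and its summed levels were 9135 and 8649.9 CPM. The ratio was 1.06 (1.01 to 1.10), and 0.729 without the cells with other-cell markers. Mmp9 had a ratio of 1.15 (0.985 to 1.35), Mmp8 of 1.90 (1.53 to 2.38) and Padi4, which citrullinates histones, stood at 114 and 99.2 CPM. The gene called lower was Slpi, a secreted inhibitor of elastase, at 670.1 and 1764 CPM, 2.63-fold (2.32 to 2.98), with ratios of 0.797 under an S100 limit of 25 and 0.665 for UMIs per cell, neither called. Against macrophages, 8 of 9 gelatinase granule genes were higher in the members, with Retnlg at 171 times (140.0 to 210.1), Mmp8 at 482 times (133 to 3986) and Itgam, the integrin chain CD11b, at 2.66 times (2.30 to 3.08).

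Some receptors of mature neutrophils were higher in the remaining range. Of 16 listed genes 6 were lower in the specific than in the remaining range and none higher, and 10 were lower without the cells with other-cell markers. The median log2 ratio was -0.72, against -0.43 over all genes. Csf3r, the receptor for the granulocyte growth factor G-CSF, had a median of 5.80 UMIs per 10000 in the remaining range, 0.858 in the specific range and 0 in the primary range, with overlapping values. After thinning, 80.4% of remaining range cells, 28.1% of specific range cells and 11.1% of primary range cells had a Csf3r UMI, against 8.98% of macrophages and 0% of fibroblast range cells. Unthinned, the shares were 84.2%, 62.1%, 28.6%, 27.1% and 0.157%. The summed level was 4.61-fold lower in the specific range (3.55 to 6.03). Il1r2, a decoy receptor for interleukin 1, was 2.49-fold lower (1.73 to 3.60), the lectin receptor Clec4d 4.13-fold (3.15 to 5.46), and Ccrl2, a receptor that presents chemerin, 7.02-fold (5.19 to 9.63). With the S100 limit at 25, 4 of the 6 genes were no longer called: Il1r2 had a ratio of 0.811, Clec4d of 0.515, the related lectin Clec4e of 0.750 and the interferon-induced Ifitm1 of 0.763. For UMIs per cell in place of CPM, Il1r2, Clec4e and Ifitm1 had ratios of 0.703, 0.653 and 0.774 and were not called.

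Not every late receptor followed. Cxcr2, the chemokine receptor that releases neutrophils from the marrow, stood at 139 CPM in the specific and 165 in the remaining range, a ratio of 0.843 (0.598 to 1.20). Without the cells with other-cell markers it was 0.577. Trem1, an amplifier of inflammatory signals, stood at 187 and 225 CPM. Ltb4r1, the leukotriene B4 receptor, went the other way at 314 and 63.1 CPM, 4.98 times higher in the specific range (3.17 to 8.21), and 3.08 times without those cells. Lta4h, which makes leukotriene B4, was also among the 10 largest ratios, at 13.2 (5.95 to 36.6). Of 13 migration receptors tested, 1 was higher and 3 were lower in the specific range, or 4 lower without the cells with other-cell markers.

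Against macrophages, 12 of 16 mature neutrophil genes were higher in the members and 3 were lower. Cxcr2 was 144 times higher (39.3 to 1203), resting on 2 macrophage UMIs, and Csf3r 3.88 times (3.18 to 4.74). G0s2, an inhibitor of lipid breakdown, was 61.9 times higher (44.1 to 89.9). The 3 lower genes were Dusp1, Btg2 and Ccrl2. Btg2 had a ratio of 0.427 and Ccrl2 of 0.265. Neither was called when each cell was weighted equally, at 0.650 and 0.859, or after thinning, at 0.593 and 0.860. Among migration receptors 7 of 16 were higher and 1 lower, or 8 and 2 without the cells with other-cell markers. Fpr1 was 103 times higher (39.6 to 381) and Ltb4r1 150.3 times (68.6 to 412). The receptor lower with all members included was Cx3cr1, the fractalkine receptor of resident macrophages, at 56.3-fold (34.6 to 98.7).

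Cytokine and chemokine genes differed both among members and between members and macrophages. Of 10 tested within the members, 6 were lower in the specific than in the remaining range and none higher, or 6 of 9 without the cells with other-cell markers. Il1b, which encodes interleukin 1 beta, had a UMI in 45 of 57 remaining range cells, 26 of 66 specific range cells, 2 of 49 primary range cells and 140 of 361 macrophages. After thinning the shares were 68.6%, 21.9%, 0% and 26.3%, with 0.212% of fibroblast range cells. Its median was 6.56 UMIs per 10000 in the remaining range and 0 in the others, with a highest value of 106 in the remaining range and 115 in macrophages. The summed level was 7.86-fold lower in the specific than in the remaining range (6.16 to 10.1). Ccl3, a chemokine for monocytes, was 7.73-fold lower (4.40 to 14.4), Ccl6, another chemokine of the same class, 4.73-fold (3.55 to 6.37), and Cxcl2, a chemokine for neutrophils, 4.02-fold (3.23 to 5.02). Cxcl2 had a ratio of 0.249 as called and of 0.537, no longer called, without members under 3000 UMIs, and of 0.512, also not called, under an S100 limit of 25. Nlrp3, the sensor of the inflammasome that matures interleukin 1, was 5.46-fold lower (3.87 to 7.84).

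Macrophages carried more of most cytokine genes than the members. Of 17 tested, 12 were lower in the members and 2 higher, or 11 and 3 without the cells with other-cell markers. Over all genes tested 17.7% were lower, or 3891 of 11276 without those cells. Ccl4, a chemokine for monocytes and lymphocytes, was 114-fold lower (85.6 to 154, or 466-fold without those cells), Ccl12 408-fold (139.5 to 1981, or 839-fold), Cxcl2 12.8-fold (11.6 to 14.2) and Tnf, tumour necrosis factor, 9.66-fold (7.69 to 12.3). Il1a had no UMI in the members and was at least 57.8-fold lower. Il1b was not called, at 224 CPM in the members and 339 in macrophages, a ratio of 0.662 (0.590 to 0.740). The genes higher in members were Ccl6 at 4.59 times (3.66 to 5.78) and Acod1, the itaconate-producing enzyme, at 2.88 times (1.16 to 7.55). Acod1 rested on 14 and 9 UMIs, and its ratio was 1.51 and not called without members under 3000 UMIs.

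**Figure D4:**
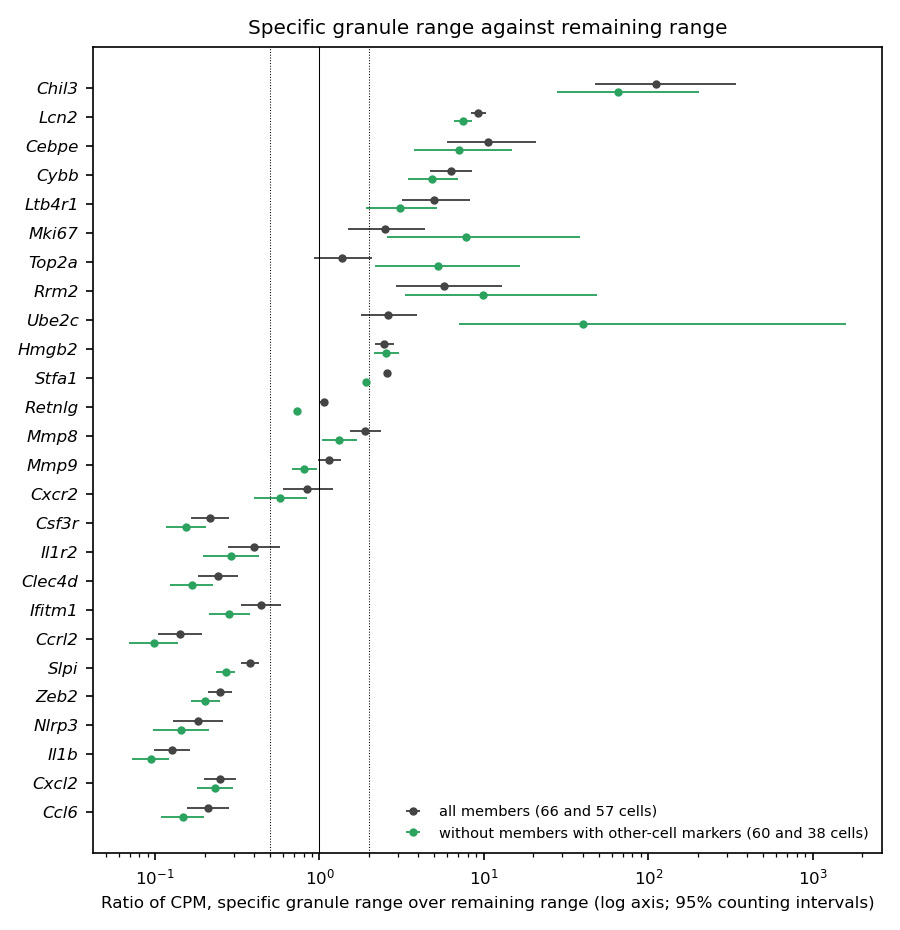
CPM ratios of the specific range to the remaining range (x, log axis) for named genes (y), with exact 95% intervals, for all cells (66 against 57) and without cells with other-cell markers (60 against 38). Chil3, Cebpe and Lcn2 lie to the right of 1, Retnlg near 1, and Il1b, Csf3r and Ccrl2 to the left in both sets.

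The stefin A genes, a cluster on chromosome 16 that encodes inhibitors of cysteine proteases, were high in the members. All 5 genes tested were higher in members than in macrophages. They are near-identical copies, so reads may be shared among them and the level of each is uncertain. Stfa1 stood at 21885 CPM in the members and 33.2 in macrophages, a ratio of 659 (549 to 798), and Stfa3 at 1474 times (575 to 5414). Across ranges Stfa1 ran at 19133 CPM in the primary, 31761 in the specific, 12272 in the remaining and 5950 in the monocyte range. Between the primary and specific ranges Stfa1 was not called at 0.602 (0.590 to 0.615), while Stfa2 was 17.5-fold (15 to 20.5) and Stfa3 13-fold (11.4 to 15) lower. In the specific against the remaining range, 3 of 5 were higher, and 1 without the cells with other-cell markers, where Stfa1 had a ratio of 1.91.

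The NADPH oxidase makes the reactive oxygen of the phagocyte burst. Of its 7 listed genes, 3 were higher in members than in macrophages and none lower, or 4 higher without the cells with other-cell markers. The 3 were Ncf1 at 3.39 times (2.92 to 3.95) and Ncf4 at 5.32 times (4.65 to 6.10), which encode cytosolic subunits, and Rac2, the small GTPase of the complex, at 4.11 times (3.77 to 4.48). The membrane subunits Cybb and Cyba were not called, with ratios of 1.32 and 1.07. Cybb varied among the members, at 227 CPM in the primary, 962 in the specific, 153 in the remaining and 873 in the monocyte range. It was 6.28 times higher in the specific than in the remaining range (4.72 to 8.52) and 4.85 times without the cells with other-cell markers. Lyz2, which encodes lysozyme, was also highest in the specific of these 3 ranges, at 1496 CPM in the primary, 9967 in the specific and 3216 in the remaining range.

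Pathogen and Fc receptors were mostly lower in members than in macrophages, 8 of 14 against 1 higher, or 7 against 2 without the cells with other-cell markers. Over all genes tested 17.7% were lower, or 3891 of 11276 without those cells. Tlr2, a receptor for bacterial lipoproteins, was 4.76-fold lower (3.97 to 5.75), Cd14, a co-receptor for lipopolysaccharide, 3.34-fold (2.93 to 3.82), and Fcgr1, the high-affinity receptor for IgG, 74.0-fold (31.5 to 229). Pirb, an inhibitory receptor for MHC class I, was 4.34 times higher (3.17 to 6.01).

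Transcription factors of the granulocyte series differed between ranges. Cebpe, which drives the specific granule program, stood at 324 CPM in the primary, 381 in the specific, 36.1 in the remaining and 12.1 in the monocyte range. It was 10.6 times higher in the specific than in the remaining range (5.94 to 20.7), or 7.05 times without the cells with other-cell markers, while primary and specific range had a ratio of 0.851 (0.713 to 1.02). In macrophages it had 1 UMI against 523 in members, a ratio of 969 (173 to 38329). Zeb2, a repressor active in monocytes and mature myeloid cells, stood at 92.3, 297 and 1193 CPM in the primary, specific and remaining ranges, 4.02-fold lower in the specific than in the remaining range (3.39 to 4.79). Spi1, which encodes PU.1, differed little between members and macrophages at 0.924 (0.854 to 1.00). Cebpa, which acts early in the myeloid series, was 18.7-fold lower in members (10.0 to 39.3), and Irf8, which favours monocytes, 16.7-fold (10.2 to 29.4). Of all 14 factors 4 were higher and 6 lower in members than in macrophages, or 3 and 7 of 13 without the cells with other-cell markers. Over all genes tested 10.8% were higher and 17.7% lower, or 1016 and 3891 of 11276 without those cells.

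Cell cycle genes were found in every range. Of 18 listed genes 4 were higher in members than in macrophages and none lower, or 8 higher without the cells with other-cell markers. Rrm2, a subunit of ribonucleotide reductase, was 8.72 times higher (6.87 to 11.2) and Hmgb2, a chromatin protein of dividing cells, 3.12 times (2.94 to 3.30). Mki67, the Ki-67 proliferation antigen, had a UMI in 21 of 49 primary range, 16 of 66 specific range, 7 of 57 remaining range and 4 of 8 monocyte range cells. After thinning the shares were 11.1%, 17.2%, 3.92% and 25%, against 8.67% of macrophages and 11% of fibroblast range cells. Summed Mki67 was 126, 135, 54.1 and 327 CPM in the same ranges.

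Of the 18 cell cycle genes, 6 were higher in the primary than in the specific range and none lower, or 8 without the cells with other-cell markers. Over all genes tested 21.1% were higher, or 1253 of 5227 without those cells. The 6 were Tyms, the thymidylate synthase, at 3.90 times (2.69 to 5.80), the helicase subunits Mcm2 at 4.75 times (2.21 to 11.7) and Mcm5 at 2.86 times (1.77 to 4.77, and 4.31 without those cells), Pcna, the sliding clamp, at 2.36 times (1.77 to 3.18), Rrm2 at 2.15 times (1.71 to 2.72) and the mitotic kinase Cdk1 at 2.39 times (1.70 to 3.41). Mki67 was not among them at 0.931 (0.693 to 1.25). After thinning, Tyms, Mcm2, Mcm5 and Cdk1 were no longer called. Rrm2 was not called, at 1.95, with the genes of the rule left out of the totals. In the specific against the remaining range 5 of 17 were higher, where 4.20% of all genes tested were. Without the cells with other-cell markers 9 of 15 were, and the list's median log2 ratio went from 0.46 to 1.87. Ube2c, a mitotic ubiquitin enzyme, went from 2.61 to 40.1 times, and Top2a, a topoisomerase of dividing cells, from 1.38 (0.930 to 2.09), not called, to 5.25.

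Across cells, the list sums were compared after thinning to 2000 UMIs, in the 150 members deep enough, as a description. These cells share 1 library, and sums of shares of the same total are not independent. S100a8 and S100a9 chose the members, and the primary and specific granule lists hold genes that cut the ranges. Values with these sums are therefore not findings. Spearman's rho between the primary granule and gelatinase granule sums was -0.66, and between the primary granule and cell cycle sums 0.62. The gelatinase granule and cell cycle sums had a rho of -0.55. The mature neutrophil and cytokine sums had a rho of 0.73. The specific granule sum had a rho of -0.02 with the primary granule sum, 0.78 with the stefin A sum and 0.81 with S100a8 plus S100a9. The specific granule and cytokine sums had a rho of -0.27, and of -0.45 in the 125 cells with few other-cell markers. In the same 125 cells the stefin A pair had a rho of 0.73, the S100 pair 0.78, the gelatinase and cell cycle pair -0.59, and the mature neutrophil and cytokine pair 0.73.

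The monocyte range was small, with 8 cells. Its cutting genes stood at 206 CPM for Ccr2, 364 for F13a1, 885 for Fn1, 799.8 for Ms4a6c and 218 for Csf1r. Ly6c2, a surface protein of classical monocytes that had no part in the cut, ran from 5.46 to 20.4 UMIs per 10000 with a median of 10.9 and was found in all 8 cells. In macrophages it was found in 2 of 361. Its values overlapped those of the primary range, which ran from 0 to 66.2 with a median of 6.70, and of the specific range, 0 to 10.3 with a median of 2.81. After thinning, Ly6c2 had a UMI in 100% of the monocyte, 63.0% of the primary, 40.6% of the specific and 11.8% of the remaining range cells. Camp, Ngp and Ltf had no UMI in the 8 cells.

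Against macrophages, 7.66% of 10613 genes were higher in the monocyte range and 6.39% lower. Of the called genes 54.5% were higher, or 28.3% when each cell was weighted equally. Ly6c2 was 2077 times higher (560.1 to 17392, on 99 and 2 UMIs) and Plac8, a small protein of immature and circulating myeloid cells, 122 times (84.8 to 178). Lyz2 was 8.99 times higher (8.47 to 9.53), at 16469 CPM. Of 12 tested genes of the monocyte list that had not cut the range, 6 were higher and 3 lower. The lower genes were Ly86, a partner of a Toll-like receptor homologue, at 9.04-fold (3.87 to 27.9), the transcription factor Klf4 at 2.53-fold (1.22 to 6.31) and Cx3cr1 at 13.2-fold (4.53 to 64.3). Of 18 cell cycle genes 12 were higher and none lower, with Top2a at 5.30 times (3.69 to 7.41) and Mki67 at 3.91 times (2.53 to 5.80). Only 4 of the 8 cells had an Mki67 UMI, so these ratios rest on few cells. After thinning to 2000 UMIs, Top2a and Mki67 had ratios of 2.95 and 1.26 and were not called, and Mcm5 had no UMI in the monocyte range. Of 11 migration receptors 8 were higher, among them the adhesion receptor Cd44 at 4.71 times (3.74 to 5.88), Selplg, the ligand of P-selectin, at 3.34 times (1.87 to 5.56) and the integrin chain Itga4 at 3.36 times (2.02 to 5.30). All 5 stefin A genes were higher, with Stfa1 at 179 times (146 to 221).

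Genes of resident macrophages were low in the monocyte range, 20 of 21 called lower and none higher. Mrc1, the mannose receptor, had no UMI and was at least 31.1-fold lower. Apoe, a lipid carrier, was 68.3-fold lower (48.4 to 99.9), and Pf4, a chemokine of platelets and macrophages, 108-fold, on 2 UMIs (30 to 895). Irf8 had a ratio of 0.934 (0.463 to 1.69). All 5 called MHC class II genes, of 6 tested, were lower.

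The specific granule range and the monocyte range differed in both directions, with 6.72% of 4642 genes higher in the specific range and 17.8% lower. Of the called genes 27.4% were higher, or 40.9% with the genes of the rule left out of the totals. Of 10 specific granule genes 8 were higher. Lcn2 was 19.5 times higher (14.4 to 27.0), Retnlg 50.3 times (30.4 to 89.9), and Chil3, at 0 in the monocyte range, at least 45.9-fold higher. Of 7 monocyte genes that had not cut the ranges, 5 were lower and none higher, or 4 of 6 without the cells with other-cell markers. Ly6c2 was 4.50-fold lower (3.48 to 5.78), Plac8 6.32-fold (4.93 to 8.08) and Psap, a lysosomal lipid cofactor, 9.94-fold (7.86 to 12.6). Ctss, a lysosomal protease of antigen-presenting cells, was 44.3-fold lower (23.7 to 90.1) and Mpeg1, which encodes the pore-forming protein perforin 2, 42.9-fold (22.9 to 87.4). Ifi30, a thiol reductase of antigen processing, was 21-fold lower (12.8 to 35.6). The cell cycle list had 8 of 16 genes lower and none higher, or 9 lower without those cells. Lyz2 was not called, at 9967 and 16469 CPM.

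**Figure D5:**
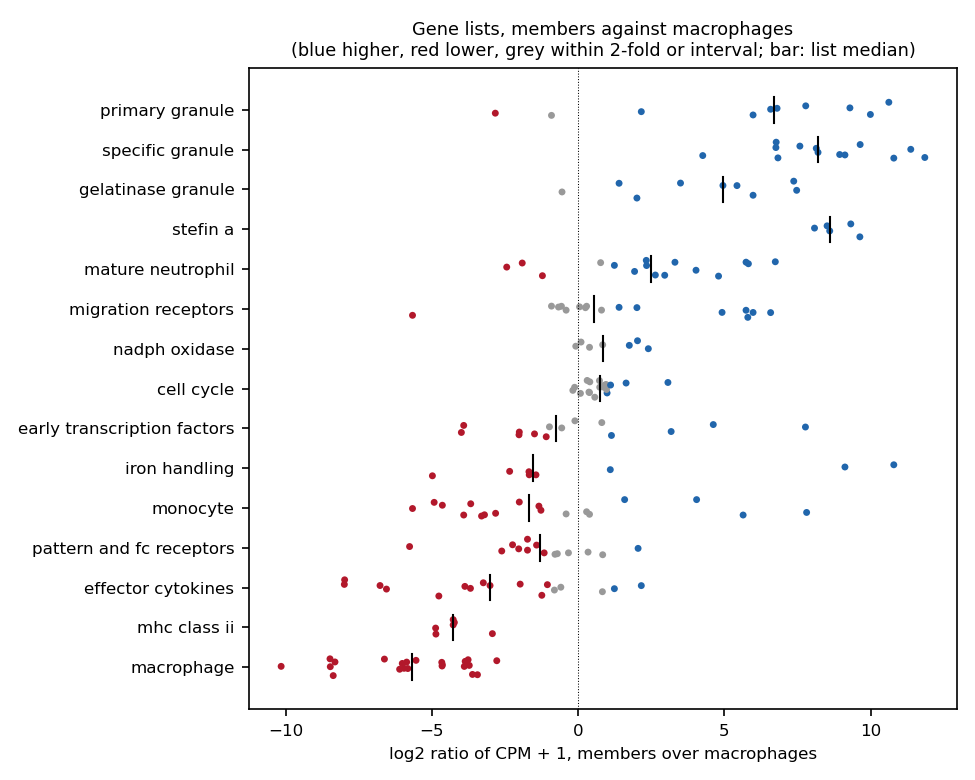
Log2 CPM ratios of members to macrophages (x, pseudocount of 1 CPM) for each tested gene (points) by gene list (y), with the median of each list as a bar; blue points were called higher and red points lower. The stefin A, specific granule and primary granule lists have medians of 8.60, 8.20 and 6.69, and the macrophage list has a median of -5.68.

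Every one of the 22 macrophage genes tested was lower in the members than in macrophages, and all 22 were without the cells with other-cell markers. Mrc1 had no UMI in the 180 members against 3921 in macrophages, at least 706-fold lower. Apoe was 46.6-fold lower (43.9 to 49.6), and 197-fold without those cells. The scavenger receptor Stab1 had 1 UMI against 1895, a fold of 1023 (183 to 40437), and Ms4a7, a membrane protein of resident macrophages, 1 against 1761, a fold of 951 (170.4 to 37579). All 6 MHC class II genes were lower, with Cd74, the invariant chain, at 19.7-fold (15.9 to 24.5). Of 18 monocyte genes 11 were lower and 4 higher, or 10 and 4 without the cells with other-cell markers. The higher ones included Ly6c2 at 612 times (169 to 5065) and Lyz2 at 3.01 times (2.92 to 3.11). Against all other cells, where 7.86% of 19816 genes were higher and 25.4% lower (23.6% of the called genes higher, or 12% for UMIs per cell), all 13 specific granule genes were again higher, with Camp at 3047 times (2813 to 3306).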

How the data were processed

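The ganglion cells were profiled on the 10X droplet platform, and the deposited matrix holds raw UMI counts for 32285 genes in 13065 barcodes, 149040354 UMIs in all. Cell Ranger 3.1.0 and the build mm10 are named in the submitters' processing notes; per the file headers, version 7.0.1 produced the deposited table. The treatment of intronic reads was not given in the sources used here. Barcodes with at least 1000 UMIs, at least 500 genes and at most 20% mitochondrial UMIs were kept. Counts were summed per group, with exact Poisson intervals for levels and exact conditional binomial intervals for ratios, at 95%. Log2 ratios used a pseudocount of 1 CPM. The scripts (Python 3.11.15, numpy 2.4.6, scipy 1.17.1, pandas 2.3.3, matplotlib 3.10.9) were tested on simulated data. Scrublet in scanpy 1.11.5 called 2 of 9427 cells (0.0212%) and so did not work; no cell was removed as a doublet, and 29 members were among the 8% of cells with the highest scores. Gene positions came from GENCODE release M21, in which 32158 feature identifiers were found, and promoters from RefSeq. Names in the text came from 29 lists of 296 genes (2 not matched), the 15 largest ratios each way for members against macrophages with at least 100 UMIs, and the 10 largest each way between ranges with at least 50. Mpo, Prtn3 and Il1b overlap a gene on the opposite strand. The members and lists were chosen with earlier results of these data known. The comparison of primary with specific range, the totals without rule genes and the removal of members under 3000 UMIs were chosen after seeing the data. The molar libraries were not analysed here. Results for some listed genes are not reported here.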

Additional observations from a re-analysis of the deposited data

How the results depend on the processing

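No paired analysis was possible because only 1 library was analysed. Over 6 comparisons 214 named genes were called, and of 2995 checks under up to 14 alternatives 2893 gave the same call and the others lost it; none gave the opposite call. In 3 of these the ratio crossed 1 without being called, all after thinning to 2000 UMIs: Ccnb2 at 0.689 in members against macrophages, Mcm5 at 0, with no UMI left, in the monocyte range against macrophages, and Mki67 at 1.12 in the specific against the monocyte range. The cause of changes below was not tested, except that thinning and higher minimum counts leave fewer genes to test. The share of members was 2.26% with an S100 limit of 25, 1.61% with no gene or mitochondrial limit, 1.34% without cells with other-cell markers and 1.40% without cells under 3000 UMIs. The primary range held 27 cells at a minimum of 2000 UMIs, 20 without cells with other-cell markers and 24 without cells under 3000 UMIs, and the monocyte range held 3 at a limit of 20. For members against macrophages, 1289 genes were higher and 2107 lower, with 3891 lower without cells with other-cell markers, 856 higher at a minimum of 50 UMIs and 704 higher after thinning. Against all other cells, 5034 were lower, or 10144 with cells weighted equally, 8206 for UMIs per cell and 3207 after thinning. For the specific against the remaining range, 254 were higher and 1242 lower. These became 618 and 2822 with an S100 limit of 25, 138 and 516 at a minimum of 50 UMIs, 1077 and 374 for UMIs per cell, and 63 and 301 after thinning. The lower count alone moved to 708 without the highest Scrublet scores, 668 without cells with other-cell markers and 1901 with no minimum, and the higher count to 444 with cells weighted equally. For the monocyte range against macrophages, 813 and 678 became 1680 and 4257 with cells weighted equally and 258 and 143 after thinning. For the specific against the monocyte range, 312 and 826 became 869 and 1423 with cells weighted equally and 62 and 206 after thinning, with 1272 lower at no minimum and 451 at 50 UMIs. For the primary against the specific range, 1548 and 927 became 864 and 590 at a minimum of 50 UMIs, 2708 and 1659 with cells weighted equally, 3334 and 428 for UMIs per cell, and 309 and 309 after thinning. With the genes of the rule left out of the totals, Fcnb, Rrm2 and Kit had ratios of 1.94, 1.95 and 2.48 there and were not called. Among genes named above, thinning also ended the calls of Prss57, Cst7, Gfi1, Myb, Kit, Cdk6, Sdf2l1, Nkg7, Tyms, Mcm2, Mcm5 and Cdk1 in the primary against the specific range, of Prss57, Myb, Acod1 and Vegfa in members against macrophages, of Ube2c and Rrm2 in the specific against the remaining range, of Selplg and Itga4 in the monocyte range against macrophages, and of Ifi30 in the specific against the monocyte range. Without the highest Scrublet scores, Gfi1 and Kit were not called in the primary against the specific range.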

Other observations

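Iron-handling genes differed between members and macrophages in both directions, with 3 of 8 listed genes higher and 5 lower. Beside Lcn2 and Ltf, Tfrc, the transferrin receptor that brings iron into cells, was 2.19 times higher in the members (1.63 to 2.95), but was not called at 1.87 without the highest Scrublet scores or at 1.58 after thinning to 2000 UMIs. Ftl1 and Fth1, the ferritin chains that store iron, were 5.07-fold (4.90 to 5.25) and 2.72-fold (2.64 to 2.80) lower. Hmox1, which releases iron from haem, was 32.5-fold lower (25.1 to 43.1, or 74.7-fold without the cells with other-cell markers), and Slc40a1, the iron exporter ferroportin, 3.23-fold (2.64 to 3.98). Fth1 was not called when each cell was weighted equally, at a ratio of 0.584, or after thinning, at 0.671.

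Growth factor genes were mostly lower in the members than in macrophages, 6 of 10 tested against 2 higher, or 7 against 1 without the cells with other-cell markers. Over all genes tested 17.7% were lower, or 3891 of 11276 without those cells. Without those cells Fgf1 went from 2.89 to 0.845, no longer called, and Igf2 from 1.18 to 0.189, now lower. Igf1, an insulin-like growth factor, was 4.43-fold lower (3.71 to 5.32), and 105-fold without those cells, and Grn, which encodes progranulin, 9.37-fold (8.04 to 11). Vegfa, the main angiogenic factor, was 4.17 times higher (2.41 to 7.45), at 24.1 CPM, and was not called after thinning. Fgfr2, the receptor deleted in the molar mutants of the series, stood at 47.6 CPM in the members and 59.2 in macrophages, a ratio of 0.804 (0.620 to 1.04), and Gli1 had no UMI in the members.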
